A study of Mus musculus with 14 samples.

Results

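The expression of 10 genes of the fibroblast growth factor (Fgf) pathway was followed through cultured stem cells and organoids of mouse small intestine and stomach. They were 3 Fgf receptors (Fgfr2, Fgfr3 and Fgfr4), the Fgf carrier protein Fgfbp1 and 6 genes known to respond to Fgf signalling (Etv4, Etv5, Dusp6, Spry1, Spry2 and Spry4). Each gene was read from the probe set annotated to its symbol, the one with the highest mean where a gene had several, which gave 10 of the 18820 genes measured. The genes were taken by symbol, with no threshold on their values, but were proposed with earlier results of these data known.

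Fgfs are secreted ligands that bind receptor tyrosine kinases on the cell surface, with heparan sulphate as a cofactor, and signal mainly through Ras and the MAP kinases. The pathway raises the transcription factors Etv4 and Etv5 and its own inhibitors, the Sprouty proteins and the ERK phosphatase Dusp6, so that these genes are commonly read as a measure of its activity. In the gut, mesenchymal Fgf10 acts through the epithelial form of Fgfr2, and Fgf10 is part of the usual medium for gastric organoids.

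The study asked whether adult intestinal stem cells (SCs) become gastric when they lose the homeobox factor Cdx2, which specifies the intestine. Each of 14 samples was read on its own Affymetrix array (Mouse Gene ST 1.1), and the values are log2 signals. All samples came from Cdx2-/fl / Lgr5-EGFP mice (with the Lgr5-EGFP-Ires-CreERT2 allele, so that one Cdx2 allele was already absent in the controls), males and females of a mixed C57Bl6j/CBA background aged 3 to 10 months. The labels do not say whether the arrays of a group came from separate animals, so p-values measure the spread between these samples, which may be technical.

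Of the arrays, 7 held SCs sorted for high EGFP from clonal organoids: control SI SCs from the small intestine (n = 3), control Sto SCs from the stomach (n = 2) and Cdx2null SI SCs (n = 2), in which overnight 4-hydroxytamoxifen had been used to remove the other Cdx2 allele through a Cre that is made in Lgr5-expressing cells only. Per the growth notes, these clonal organoids had been kept in gastric medium (Sto medium, which holds EGF, Noggin, R-spondin, Wnt3a, Fgf10 and gastrin). The other 7 arrays held whole, unsorted control organoids. In SI medium there were 3 arrays of SI organoids and 2 of Sto organoids, and in Sto medium there was 1 array of each. SI medium contains EGF, Noggin and R-spondin only, with no added Fgf. Per the growth notes both kinds of control organoid were moved to it for differentiation, and per the methods control SI SCs also kept growing in it through passages. Whole organoids contain differentiated cells as well as SCs, and in such bulk samples fewer cells of a type and less RNA per cell cannot be told apart.

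Several arrays stood apart. The library labelled SI organoids in SI medium 1 went against its label, with a Cdx2 signal of 5.52 against 9.92 and 9.67 on the other 2 arrays of its group and correlations with them of 0.928 and 0.904, against 0.984 between those 2. For the 10 genes, calls that rest on it are given with and without it in the main comparisons. The media within SI organoids and the difference between the 2 medium effects are given with it only. Counts of groups that did not overlap and correlations include it unless stated. Cdx2null SI SCs 1 kept a Cdx2 signal of 8.41, against 4.88 in Cdx2null SI SCs 2. The stomach arrays read 4.57 to 5.57 and control SI SCs 8.94 to 10.05. Per the study's methods the array also covers exons left after the deletion, so that the signal does not by itself check the labels. This holds for both Cdx2null arrays, and the cause of their difference was not tested. Array 3 of control SI SCs and array 3 of SI organoids in SI medium had been exported in another form, with upper quartiles of 7.50 and 7.57 against 7.79 to 7.90 elsewhere. Lgr5, the receptor that marks the SCs, read 4.20 and 4.32 in Sto organoids in SI medium and 9.29 to 11.56 on the other 12 arrays.

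Promoter sequences are shown for 4 of the 5 genes that were higher in control Sto SCs than in Sto organoids in SI medium in the results below, namely those with an entry in the promoter table used here. They are the 250 bases before the RefSeq start of each gene on GRCm38.p6, 5′ to 3′ on the gene's own strand, and capitals mark the motif CCAAT or its reverse complement. Fgfr2 lies on the minus strand (promoter chr7:130266809-130267058), Fgfr4 on the plus strand (chr13:55152568-55152817), Etv5 on the minus strand (chr16:22439571-22439820) and Spry1 on the plus strand (chr3:37639697-37639946).
Fgfr2: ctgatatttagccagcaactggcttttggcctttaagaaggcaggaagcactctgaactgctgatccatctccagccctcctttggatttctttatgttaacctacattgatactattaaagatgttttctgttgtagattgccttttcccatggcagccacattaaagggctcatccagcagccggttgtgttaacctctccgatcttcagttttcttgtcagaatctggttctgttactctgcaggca
Fgfr4: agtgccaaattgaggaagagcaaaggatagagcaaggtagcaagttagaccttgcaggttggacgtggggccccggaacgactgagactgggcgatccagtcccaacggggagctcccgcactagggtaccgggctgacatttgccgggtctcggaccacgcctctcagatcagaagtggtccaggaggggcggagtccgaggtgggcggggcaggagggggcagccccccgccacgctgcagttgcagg
Etv5: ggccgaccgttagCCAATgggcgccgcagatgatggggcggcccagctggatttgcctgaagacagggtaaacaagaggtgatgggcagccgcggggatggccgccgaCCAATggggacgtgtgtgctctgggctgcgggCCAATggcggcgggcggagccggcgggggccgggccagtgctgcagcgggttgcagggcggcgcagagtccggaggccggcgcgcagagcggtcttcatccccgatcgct
Spry1: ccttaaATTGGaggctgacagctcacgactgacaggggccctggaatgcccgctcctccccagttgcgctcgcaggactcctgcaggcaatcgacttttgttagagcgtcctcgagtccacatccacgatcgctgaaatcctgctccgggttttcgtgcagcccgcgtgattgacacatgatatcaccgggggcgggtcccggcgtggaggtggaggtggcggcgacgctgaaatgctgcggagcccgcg
Entries were found for 8 of the 10 genes, 10 promoters in all. Searched on both strands, none of the 10 held the ETS motif CCGGAAG, the AP-1 motif TGANTCA or the TCF/LEF motif CTTTGAT, which 6.91%, 6.75% and 3.21% of all 32851 mouse promoters of that length held. The CDX motif TTTATNG was in 1 of the 10 (Fgfr3), against 9.81% of all promoters. CCAAT, which was searched for after the sequences had been seen, was in 6 of the 10 (5 genes), against 33.85% of all promoters, and the Etv5 promoter printed here held it 3 times, as 2.79% of all promoters did 3 times or more. The promoter of a second Etv5 start, which lies inside the gene and is not printed, held it 1 time. In the Fgfr3 promoter the CDX and CCAAT matches overlapped. A match is a description of letters and not a binding site.

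The receptors varied most in the stomach samples. Fgfr2, which in epithelium is the receptor for Fgf7 and Fgf10, read 9.99 and 9.49 in control Sto SCs and 9.33 and 9.58 in Cdx2null SI SCs. In control SI SCs it read 8.80, 8.63 and 7.69, in SI organoids in SI medium 8.68, 8.88 and 8.50, and in the single arrays of organoids grown in Sto medium 8.86 (SI) and 8.51 (Sto). Sto organoids in SI medium had 7.11 and 8.06. The 4 arrays of control Sto SCs and Cdx2null SI SCs were therefore above all 10 others, and the 2 Sto organoid arrays in SI medium overlapped with control SI SCs only through control SI SCs 3.

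Fgfr4, a receptor with a role in the response of liver to the intestinal hormone Fgf15, had the widest range of the 10 genes (5.57 to 9.71). It read 9.46, 9.64 and 8.90 in control SI SCs, 9.71 and 8.74 in Cdx2null SI SCs and 8.99 and 8.89 in control Sto SCs. SI organoids had 9.40 in Sto medium and 8.68, 8.31 and 8.04 in SI medium. Sto organoids had 8.16 in Sto medium and 5.57 and 6.64 in SI medium, the lowest 2 arrays of all, with the next one more than 1 log2 unit above them.

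Fgfr3, the third receptor, had a narrower range, from 5.60 to 7.46. Sto organoids in SI medium gave its lowest values (5.87 and 5.60), and the next lowest was the library labelled SI organoids in SI medium 1 (6.08), whose group held 7.46 and 7.28 otherwise. All other arrays lay between 6.58 and 7.29. Fgfbp1, which releases Fgfs from the matrix, was highest in control SI SCs 3 (8.91) and in both organoid arrays in Sto medium (8.85 for Sto, 8.70 for SI). It read 7.58 and 6.46 in Sto organoids in SI medium, 7.41, 8.07 and 8.26 in SI organoids in SI medium and 7.79 to 8.49 on the remaining SC arrays.

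**Figure D1:**
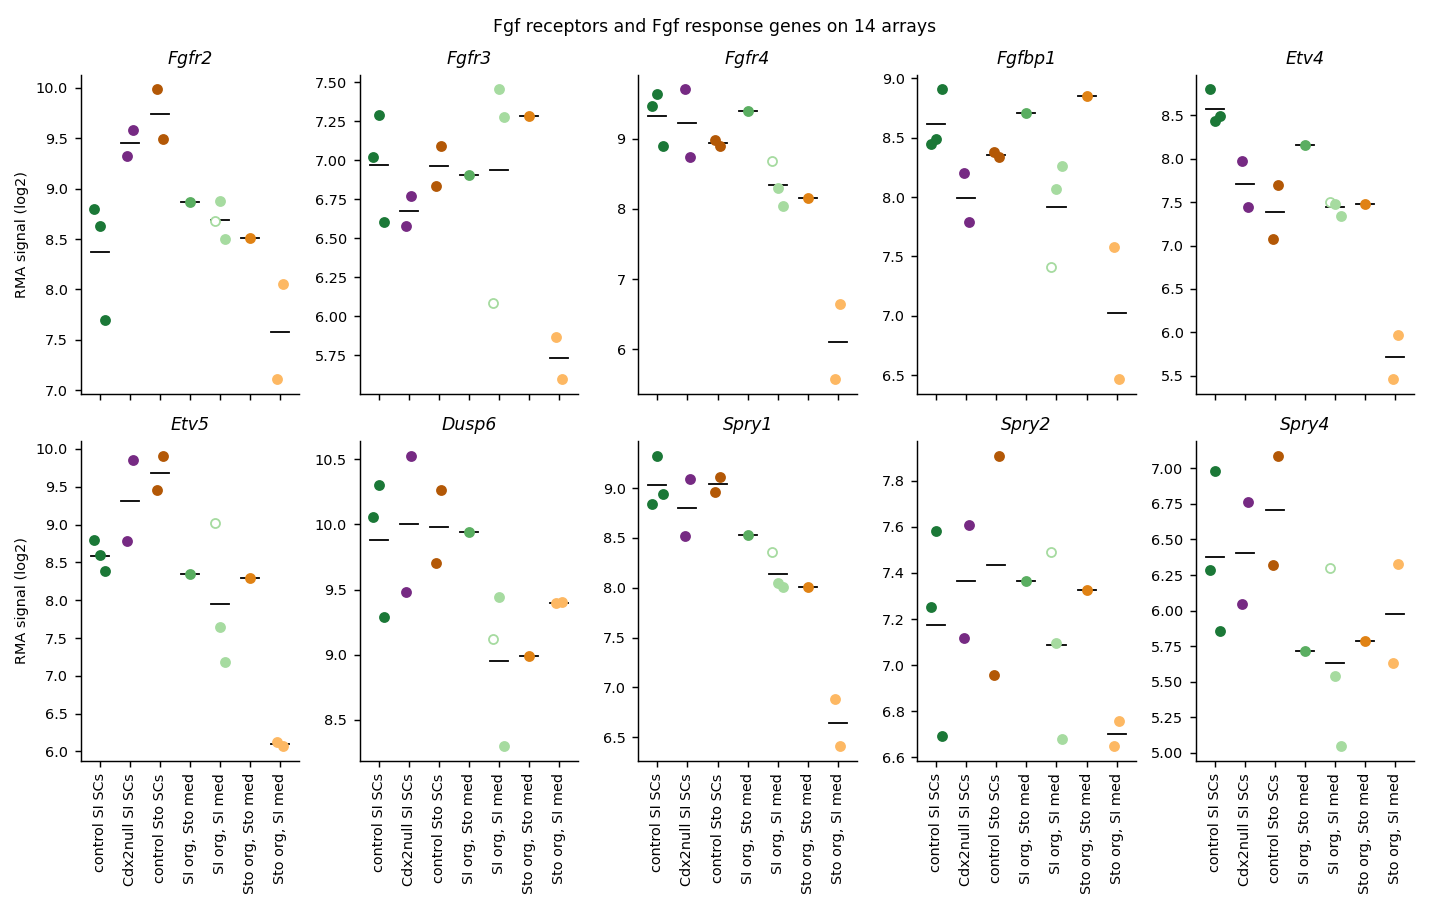
Each panel plots the log2 signal of 1 gene (vertical axis) on the 14 arrays, grouped along the horizontal axis with a black bar at each group mean; the open symbol is the library labelled SI organoids in SI medium 1. Fgfr3, Fgfr4, Etv4, Etv5 and Spry1 have both Sto organoid arrays in SI medium below the other 12 arrays, and Dusp6, Spry2 and Spry4 do not.

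Among the response genes, the transcription factors Etv4 and Etv5 followed the receptors down in Sto organoids in SI medium but differed from each other between intestine and stomach. Etv4 read 8.80, 8.43 and 8.49 in control SI SCs, above every other array. It was 7.98 and 7.45 in Cdx2null SI SCs, 7.08 and 7.70 in control Sto SCs and 8.16 (SI) and 7.47 (Sto) in organoids in Sto medium. In SI medium it was 7.50, 7.48 and 7.34 in SI organoids and 5.46 and 5.97 in Sto organoids. Etv5 was highest in control Sto SCs (9.45 and 9.91) and Cdx2null SI SCs 2 (9.85), with 8.78 in Cdx2null SI SCs 1 and 8.80, 8.60 and 8.38 in control SI SCs. Organoids in Sto medium had 8.34 (SI) and 8.30 (Sto). In SI medium the SI organoids read 9.02, 7.64 and 7.19, of which the first is the library that goes against its label, and the Sto organoids 6.12 and 6.07. A second Etv5 probe set gave the same lowest 2 arrays, at 6.04 and 6.51.

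The feedback inhibitors did not move as 1 group. Spry1, an inhibitor of receptor tyrosine kinase signalling, lay between 8.52 and 9.33 on the 7 SC arrays and read 8.53 (SI) and 8.01 (Sto) in organoids in Sto medium. In SI medium it read 8.36, 8.05 and 8.01 in SI organoids and 6.88 and 6.41 in Sto organoids. On 6 of 7 SC arrays it was above every organoid array. Dusp6, which dephosphorylates ERK, kept a signal of 9.40 on both arrays of Sto organoids in SI medium, within its range on the other arrays (8.30 to 10.53). Spry2 ranged only from 6.65 to 7.91 and Spry4 from 5.05 to 7.09. For both, the highest value was on control Sto SCs 2.

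Both arrays of Sto organoids in SI medium were below all 12 other arrays for 5 of the 10 genes (Fgfr3, Fgfr4, Etv4, Etv5 and Spry1), against 8.26% of all genes. In the order of group means this group was last for 8 of the 10 genes, Dusp6 and Spry4 being the exceptions. The share of all genes for which it was last was not computed. For 8 of the 10 genes the top 2 groups overlapped. The top 3 groups for Spry1 (control Sto SCs 9.04 ± 0.10, SD, n = 2; control SI SCs 9.04 ± 0.26, SD, n = 3; Cdx2null SI SCs 8.81 ± 0.40, SD, n = 2) overlapped each with the next. For Dusp6 the top 3 groups also overlapped each with the next. Its 3 SC groups had means of 9.88 to 10.01, and the single array of SI organoids in Sto medium (9.94) ranked above control SI SCs. The exceptions to overlap of the top 2 groups were Fgfbp1, where both were single arrays, and Etv4, where all 3 control SI SC arrays were above the next group.

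The largest differences were between control Sto SCs and Sto organoids in SI medium, where 5 of the 10 genes were called higher in the SCs. A gene was called here where limma's adjusted p over all genes was under 0.05 and the fold at least 2, which 3.74% of all genes met in that direction. Etv5 was 12.0-fold higher (log2 difference 3.59, SE 0.54, limma adjusted p = 0.00483). Fgfr4 was higher by 2.84 (SE 0.42, limma adjusted p = 0.00472) and Spry1 by 2.39 (SE 0.25, limma adjusted p = 0.000976). These 3 calls held when any 1 array of either group was left out, and the second Etv5 probe set gave 3.00 (SE 0.76, limma adjusted p = 0.0443). Fgfr2 was higher by 2.16 (SE 0.40, limma adjusted p = 0.0121) and Etv4 by 1.68 (SE 0.27, limma adjusted p = 0.00634). The Fgfr2 call was lost without control Sto SCs 1 (1.91, limma adjusted p = 0.0923) and without Sto organoids in SI medium 1 (1.69, limma adjusted p = 0.103). The Etv4 call was lost without control Sto SCs 2 (1.37, limma adjusted p = 0.0561) and without Sto organoids in SI medium 1 (1.42, limma adjusted p = 0.0636).

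The other 5 genes were not called in that comparison. Fgfbp1 differed by 1.33 (SE 0.38, limma adjusted p = 0.07) and was called without Sto organoids in SI medium 1 (1.89, limma adjusted p = 0.0407), whereas without Sto organoids in SI medium 2 it differed by 0.77 (limma adjusted p = 0.381). Fgfr3 differed by 1.23 (SE 0.41, limma adjusted p = 0.116), and Spry2 and Spry4 by 0.73 each. The Dusp6 difference of 0.58 had a 95% interval of -0.48 to 1.64, so that neither no change nor a rise of 3-fold is outside it. The median difference of the 10 genes was 1.50, against -0.01 over all genes, and the 2 groups did not overlap for 9 of the 10, against 28.2% of all genes in that direction. With each array centred on its own median, the median over all genes moved to -0.30 and the share of calls that were higher in the SCs fell from 61.94% to 34.97% (53.86% after quantile normalisation). The same 5 genes were called under both scalings, with differences of 1.38 (Etv4) to 3.29 (Etv5) after centring.

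These 2 groups also differed in what they contained, since sort and medium changed together. Lgr5 was higher in control Sto SCs by 6.70 (SE 0.32, limma adjusted p = 1.09e-05) and the proliferation gene Mki67 by 2.92 (SE 0.38, limma adjusted p = 0.00274). All 7 proliferation genes measured were called higher in the SCs, with a mean level of 9.66 and 9.74 against 7.06 and 7.58. All 4 gastric pit cell genes (Gkn1, Gkn2, Muc5ac and Tff1) were called lower, with a mean level of 5.71 and 5.85 against 12.46 and 12.53. Of the 11 genes of dissociation stress measured, 7 were called higher in the sorted cells (mean level 10.16 and 10.78 against 8.11 and 8.14). Of the genes of mesenchyme, immune cells and endothelium, 7 of 9, 4 of 5 and 4 of 4 never rose above 6 on any array. Of these lists, 1 gene was called, the immune gene Laptm5, which was lower in the SCs (5.29 and 5.78 against 6.78 and 8.04, limma adjusted p = 0.0301). Whether proliferation, pit cell content, the signal of Laptm5 or the sort had a part in the differences of the Fgf genes was not tested.

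**Figure D2:**
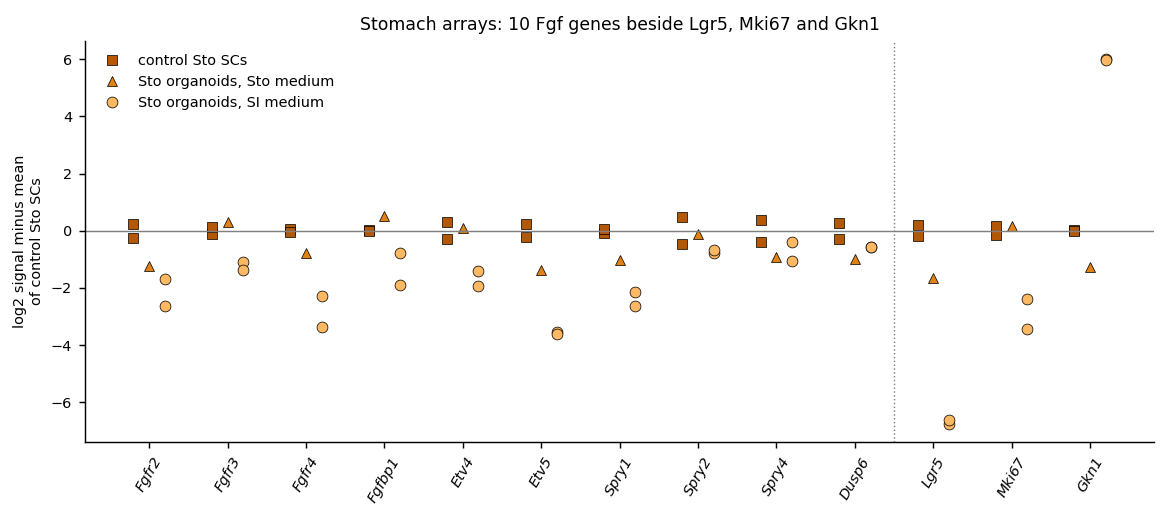
The log2 signal of each gene on the 5 stomach arrays is plotted after subtraction of its mean in control Sto SCs (squares), for Sto organoids in Sto medium (triangle) and in SI medium (circles); Lgr5, Mki67 and the pit cell gene Gkn1 are shown to the right of the 10 genes. Among the 10 genes Etv5 and Fgfr4 lie furthest down in SI medium, while Dusp6 stays within 1 log2 unit, and the triangle lies between for Etv5, Fgfr4, Fgfr2 and Spry1.

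The same contrast in the intestine gave no calls. In the sorted intestinal cells set against whole SI organoids in SI medium, 0 of the 10 genes were called, with 0.159% of all genes called in either direction, and 5 of the 10 (1776 of all genes) had an unadjusted p under 0.05. Etv4 differed by 1.14 (SE 0.22, limma adjusted p = 0.103), Fgfr4 by 0.99 (SE 0.35, limma adjusted p = 0.39), Dusp6 by 0.93 (SE 0.38, limma adjusted p = 0.475) and Spry1 by 0.90 (SE 0.21, limma adjusted p = 0.149). Fgfr2 differed by -0.31 (SE 0.33), with the 2 groups overlapping. For Fgfr4, Fgfbp1, Etv4 and Spry1 all 3 SC arrays were above all 3 organoid arrays, as for 5.05% of all genes. Without the library labelled SI organoids in SI medium 1, Etv4 (1.16, limma adjusted p = 0.0233) and Spry1 (1.01, limma adjusted p = 0.0274) were called, while the background of genes called higher rose to 2.18%. Lgr5 stayed at 9.49 to 10.28 in these organoids, and 3 of 11 genes of dissociation stress were called higher in the SCs.

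Whether the origin of the tissue had a different effect in SCs and in organoids in SI medium was tested as 1 contrast. The SCs had been kept in Sto medium, so that sort and medium cannot be told apart in it. For Fgfr2 and Etv5, every control Sto SC array was above every control SI SC array, and both Sto organoid arrays in SI medium were below all 3 SI organoid arrays. Taken singly, the first part held for 19.9% of all genes and the second for 14.2%. The share of all genes with both parts was not computed. With all arrays as deposited, none of these differences was called (limma adjusted p = 0.095 and 0.2 for Fgfr2, 0.151 and 0.212 for Etv5). The difference between the 2 origin effects was 2.95 for Etv5 (SE 0.69, limma adjusted p = 0.105), 2.47 for Fgfr2 (SE 0.52, limma adjusted p = 0.0721) and 1.50 for Spry1 (SE 0.33, limma adjusted p = 0.086). None of the 10 genes was called, against 0.845% of all genes, and 5 (1886 of all genes) had an unadjusted p under 0.05. Of all calls 56.6% were above 0, and 36.64% were after each array was centred on its median, which moved the median over all genes to -0.28. Without the library labelled SI organoids in SI medium 1, 4 genes were called (Fgfr2 2.48, Fgfr3 1.63, Etv5 2.41 and Spry1 1.38, limma adjusted p = 0.0169 to 0.0496), against 2.88% of all genes in that direction. Fgfr2 was also called after quantile normalisation (2.36, limma adjusted p = 0.0244) and after centring (2.20, limma adjusted p = 0.0377).

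Between organoids of both origins in SI medium, without added Fgf, 1 of the 10 genes was called. Etv4 was lower in Sto organoids by 1.73 on the log2 scale (difference -1.73, SE 0.21, limma adjusted p = 0.0416), as were 0.887% of all genes. Fgfr4 differed by -2.24 (SE 0.39, limma adjusted p = 0.0812), Etv5 by -1.85 (SE 0.57, limma adjusted p = 0.212) and Spry1 by -1.49 (SE 0.22, limma adjusted p = 0.0595). Fgfr2 and Fgfr3 differed by -1.10 and -1.21, and Fgfbp1 by -0.89. Dusp6 (0.45, SE 0.37) and Spry4 (0.35, SE 0.44) were the only 2 of the 10 with a mean above that of SI organoids. For 6 genes (Fgfr2, Fgfr3, Fgfr4, Etv4, Etv5 and Spry1) the 2 groups did not overlap, against 14.2% of all genes in that direction. Of all calls 37.22% were higher in Sto organoids, and 49.82% were after each array was centred on its median.

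That count depended on single arrays. The Etv4 call was lost without Sto organoids in SI medium 1 (-1.47, limma adjusted p = 0.349) or 2 (-1.98, limma adjusted p = 0.191) and without SI organoids in SI medium 2 (-1.71, limma adjusted p = 0.178) or 3 (-1.78, limma adjusted p = 0.11). Without the library labelled SI organoids in SI medium 1, 5 genes were called lower in Sto organoids, against 6.29% of all genes. They were Fgfr4 (-2.07, limma adjusted p = 0.0156), Etv4 (-1.70, limma adjusted p = 0.00676), Fgfr3 (-1.63, limma adjusted p = 0.00484), Spry1 (-1.38, limma adjusted p = 0.0121) and Etv5 (-1.32, limma adjusted p = 0.0135). Beside these, all 7 proliferation genes were called lower and 3 of 4 pit cell genes higher in Sto organoids, and Lgr5 differed by -5.63 (SE 0.27, limma adjusted p = 0.0116). Their part in the result was not tested.

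Sto medium adds Wnt3a, Fgf10 and gastrin together, so that the effect of Fgf10 cannot be told apart from that of the other 2, and each origin had 1 array in it. With origin as an additive term, 0 of the 10 genes and 0% of all genes were called between the media, and 4 of the 10 (1816 of all genes) had an unadjusted p under 0.05. Those 4 were Fgfr4 (1.53 higher in Sto medium, SE 0.38, limma adjusted p = 0.411), Fgfbp1 (1.28, SE 0.42, limma adjusted p = 0.452), Etv4 (1.21, SE 0.27, limma adjusted p = 0.387) and Spry1 (0.85, SE 0.27, limma adjusted p = 0.449). Etv5 differed by 1.24 (SE 0.61, limma adjusted p = 0.591). Dusp6 (0.33), Spry2 (0.44) and Spry4 (-0.04) were within 2 SE of 0. With all arrays, only for Fgfbp1 were both arrays in Sto medium above all 5 in SI medium, as for 7.38% of all genes. Once the library labelled SI organoids in SI medium 1 was left out, this also held for Etv5 and Spry2. Etv5 then read 8.34 and 8.30 against at most 7.64, and Spry2 7.36 and 7.33 against at most 7.10. The share of all genes for this was not computed. It cannot be below 7.38%, since leaving out an array can only raise it. Without the library labelled SI organoids in SI medium 1, again 0 of the 10 were called, against 0.0266% of all genes.

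The media were also compared within each origin. Within Sto organoids Etv5 differed by 2.20, Fgfr4 by 2.06, Fgfbp1 by 1.83, Etv4 by 1.76, Fgfr3 by 1.55 and Spry1 by 1.36, while Dusp6 differed by -0.41. None was called (0.106% of all genes were), with Etv4 at a limma adjusted p of 0.126. The 1 array in Sto medium was above both in SI medium for 8 of the 10 genes, as for 38.9% of all genes. That array had low Xist (3.23) and high Kdm5d (7.25), as in males, unlike every other organoid array. Both Sto organoid arrays in SI medium had high Xist (11.55 and 11.39), so that medium and sex cannot be told apart within Sto organoids. Within SI organoids the differences were 1.06 for Fgfr4, 0.99 for Dusp6, 0.79 for Fgfbp1, 0.72 for Etv4 and 0.39 for both Spry1 and Etv5, again with 0 of the 10 genes and 0% of all genes called. The array in Sto medium was above all 3 in SI medium for Fgfr4, Fgfbp1, Etv4, Dusp6 and Spry1, as for 23.8% of all genes. The difference between the 2 medium effects was called for none of the 10 (0.0106% of all genes), and its largest sizes were 1.81 for Etv5 (SE 1.05), 1.58 for Fgfr3 (SE 0.84) and -1.40 for Dusp6 (SE 0.67). Both this and the SI organoid differences include the library labelled SI organoids in SI medium 1. Its Etv5 signal was 9.02, against 7.64 and 7.19 on the other arrays of its group and 8.34 in Sto medium. Between media, the Sto organoids also differed in Lgr5 (9.29 in Sto medium), Gkn1 (5.21 in Sto medium, 12.47 and 12.45 in SI medium) and Mki67 (10.26 in Sto medium, 6.67 and 7.70 in SI medium).

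Where both had been grown in Sto medium, none of the 10 genes was called between control SCs and whole organoids, against 0.0425% of all genes. Each difference here is the mean of the SI and the Sto difference. With 1 organoid array per origin some 95% intervals were wide, at -0.20 to 1.84 for Etv5 and -0.16 to 1.74 for Spry4. A difference of 2-fold was not outside these. Spry1 was higher in the SCs by 0.77 (SE 0.21, limma adjusted p = 0.284), Etv5 by 0.82 (SE 0.45, limma adjusted p = 0.698) and Spry4 by 0.79 (SE 0.42, limma adjusted p = 0.678). For these 3 genes all 5 SC arrays were above both organoid arrays, as for 4.89% of all genes. The 3 receptors differed by -0.13 (Fgfr3) to 0.37 (Fgfr2), each within 1.5 SE of 0, and Etv4 by 0.16 with a 95% interval of -0.34 to 0.67. These means can hide opposite directions. Fgfr2 had a mean of 8.37 in control SI SCs against 8.86 in SI organoids, but 9.74 in control Sto SCs against 8.51 in Sto organoids. The direction also differed between origins for Fgfr3, Fgfr4, Etv4, Dusp6 and Spry2, and not for Fgfbp1, Etv5, Spry1 and Spry4. Of the 11 genes of dissociation stress, 3 (Fos, Fosb and Atf3) were called higher in the SCs.

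**Figure D3:**
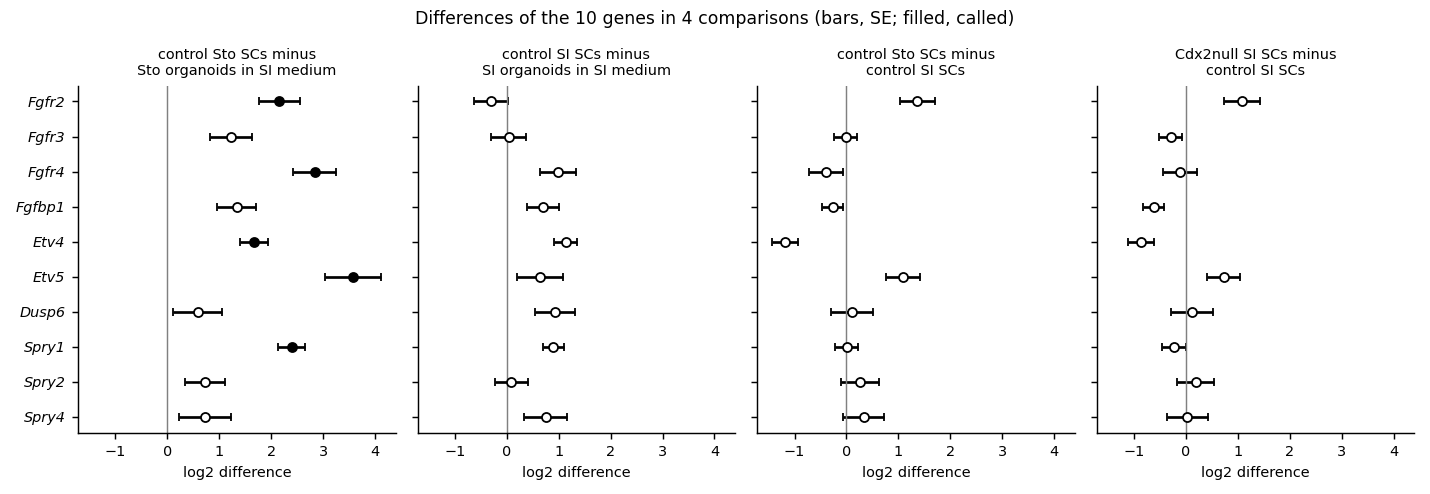
Log2 differences of the 10 genes (horizontal axis) with their SE are shown for 4 comparisons, filled where called and open otherwise. The stomach comparison on the left holds 5 filled symbols and the other 3 panels hold none.

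Loss of Cdx2 in SI SCs left the 10 genes with 0 calls, where 1.52% of all genes were called. With the values as deposited, Fgfr2 had the largest difference between Cdx2null and control SI SCs, at 1.08 (SE 0.34, limma adjusted p = 0.254). Both Cdx2null arrays were above all 3 controls. Etv4 differed by more than Fgfr2 after quantile normalisation (-1.02 against 0.93) and after centring (-1.01 against 0.93). Etv4 differed by -0.86 (SE 0.25, limma adjusted p = 0.211) and Fgfbp1 by -0.62 (SE 0.20, limma adjusted p = 0.268), both with no overlap between the groups. Etv5 differed by 0.72 (SE 0.33, limma adjusted p = 0.47), and its 2 Cdx2null arrays lay apart (8.78 and 9.85), the first within the control range. Without Cdx2null SI SCs 1, which kept a Cdx2 signal, Etv5 differed by 1.26 and Etv4 by -1.13. Without Cdx2null SI SCs 2 they differed by 0.19 and -0.60. The other 6 genes differed by -0.30 (Fgfr3) to 0.19 (Spry2). Control SI SCs 1 and 3 had low Xist and high Kdm5d, as in males, unlike both Cdx2null arrays. With a term for sex the differences were 0.83 for Fgfr2 (SE 0.47), -0.72 for Etv4 (SE 0.35), -0.49 for Fgfbp1 (SE 0.28) and 0.72 for Etv5 (SE 0.47). Non-overlapping groups were also seen for 15.4% of all genes in the higher and 9.52% in the lower direction.

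Control Sto SCs were set against the same 3 control SI SC arrays, so that this comparison is not independent of the last. Fgfr2 was higher by 1.37 (SE 0.34, limma adjusted p = 0.095) and Etv5 by 1.09 (SE 0.33, limma adjusted p = 0.151), and Etv4 differed by -1.19 (SE 0.25, limma adjusted p = 0.0591). None was called, against 2.86% of all genes. Both groups were apart for Fgfr2 and Etv5 in the higher direction, as for 19.9% of all genes, and for Fgfbp1 and Etv4 in the lower, as for 10.6%. Fgfr2 (1.23, limma adjusted p = 0.0452) and Etv4 (-1.35, limma adjusted p = 0.0357) were called after quantile normalisation of the arrays. Control SI SCs 1 and 3 had low Xist and high Kdm5d, as in males, unlike the other SC arrays, and with a term for sex the differences were 1.12 for Fgfr2 and -1.05 for Etv4 (limma adjusted p = 0.455 and 0.313). Spry1 (0.00, SE 0.23) and Fgfr3 (-0.01, SE 0.22) had 95% intervals of -0.53 to 0.54 and -0.53 to 0.52.

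Between Cdx2null SI SCs and control Sto SCs 0 of the 10 genes were called, as were 0% of all genes, of which 286 had an unadjusted p under 0.05. The 10 differences ran from -0.37 (Etv5, SE 0.36) to 0.32 (Etv4, SE 0.28). With 2 arrays in each group the intervals were wide, at -1.18 to 0.60 for Fgfr2 and -1.21 to 0.48 for Etv5, so that a difference of 2-fold was not outside them. Both Cdx2null arrays were below both control Sto arrays for Fgfr3 and Fgfbp1, as for 13.5% of all genes.

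The wider pathway was read from lists of ligands, other receptors and cofactors, heparan sulphate genes, signal relay, other feedback inhibitors and other MAP kinase response genes, of which 77 of 85 were measured. Between Cdx2null and control SI SCs 3 of the 77 were called (1.52% of all genes were), all higher: the ligand Fgf9, the extracellular heparan sulphate endosulphatase Sulf1 and the cell surface proteoglycan Gpc1. In control Sto SCs against control SI SCs, which uses the same control arrays and in which 2.86% of all genes were called, 3 were called higher, and they were again Fgf9, Sulf1 and Gpc1. In control Sto SCs against Sto organoids in SI medium 3 were called higher (3.74% of all genes were) and 1 lower, and in the other comparisons 0 were. After Benjamini-Hochberg adjustment the methods' t-test called none of these genes in any of the 3 comparisons (adjusted p = 0.126 to 0.64). The median difference of the 77 was -0.01 to 0.22 in the 3 comparisons among SCs.

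Sulf1 signals were 4.08, 4.17 and 3.84 for control SI SCs, 7.78 and 8.53 in Cdx2null SI SCs and 8.22 and 8.60 in control Sto SCs. The difference from control SI SCs was 4.13 in Cdx2null SI SCs (SE 0.25, limma adjusted p = 0.00139) and 4.38 in control Sto SCs (SE 0.25, limma adjusted p = 0.00104). Sto organoids read 8.85 in Sto medium and 5.07 and 6.72 in SI medium, and SI organoids 3.72 to 4.62, apart from the library labelled SI organoids in SI medium 1 (8.73). The high values were thus on the stomach arrays in Sto medium, on Cdx2null SI SCs and on the library that goes against its label.

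Fgf9 read 5.27, 5.72 and 5.14 in control SI SCs, 7.16 and 7.88 in Cdx2null SI SCs and 7.68 and 7.75 in control Sto SCs. The differences were 2.14 (SE 0.26, limma adjusted p = 0.0119) and 2.34 (SE 0.26, limma adjusted p = 0.00664). Gpc1 differed by 1.65 (SE 0.27, limma adjusted p = 0.036) and 2.05 (SE 0.27, limma adjusted p = 0.0119). Several of these calls rested on single arrays. In Cdx2null against control SI SCs both were lost without Cdx2null SI SCs 2 (1.78 for Fgf9 and 1.28 for Gpc1), without control SI SCs 1 (2.09 and 1.82) and without control SI SCs 3 (2.02 and 1.52), and Gpc1 also without control SI SCs 2 (1.62), with limma adjusted p = 0.0549 to 0.188. In control Sto against control SI SCs both were lost without control Sto SCs 1 (2.38 and 1.95) and without control Sto SCs 2 (2.30 and 2.15), with limma adjusted p = 0.052 to 0.0902. With a term for sex the Gpc1 adjusted p from limma were 0.166 and 0.0744 and those of Fgf9 0.0782 and 0.05.

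In control Sto SCs against Sto organoids in SI medium, Fgfrl1, an Fgf receptor that lacks the kinase domain, was higher by 3.17 (SE 0.35, limma adjusted p = 0.00124), at 9.66 and 9.51 against 6.26 and 6.56. This call held without any 1 array of either group. The early response gene Egr1 was higher by 2.55 (SE 0.43, limma adjusted p = 0.00775), and is also 1 of the 11 genes of dissociation stress. The basement membrane proteoglycan Hspg2 was higher by 1.32 (SE 0.25, limma adjusted p = 0.0125) and the membrane protein Flrt3, which binds Fgf receptors, differed by -1.39 (SE 0.26, limma adjusted p = 0.0117). Leaving out any 1 of the 4 arrays ended the Hspg2 call (1.17 to 1.46, limma adjusted p = 0.0529 to 0.0949) and the Flrt3 call (-1.55 to -1.24, limma adjusted p = 0.0521 to 0.0887). The Egr1 call was lost without control Sto SCs 1 (2.18) and without Sto organoids in SI medium 1 (2.56) or 2 (2.54), with limma adjusted p = 0.0505 to 0.0678.

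**Figure D4:**
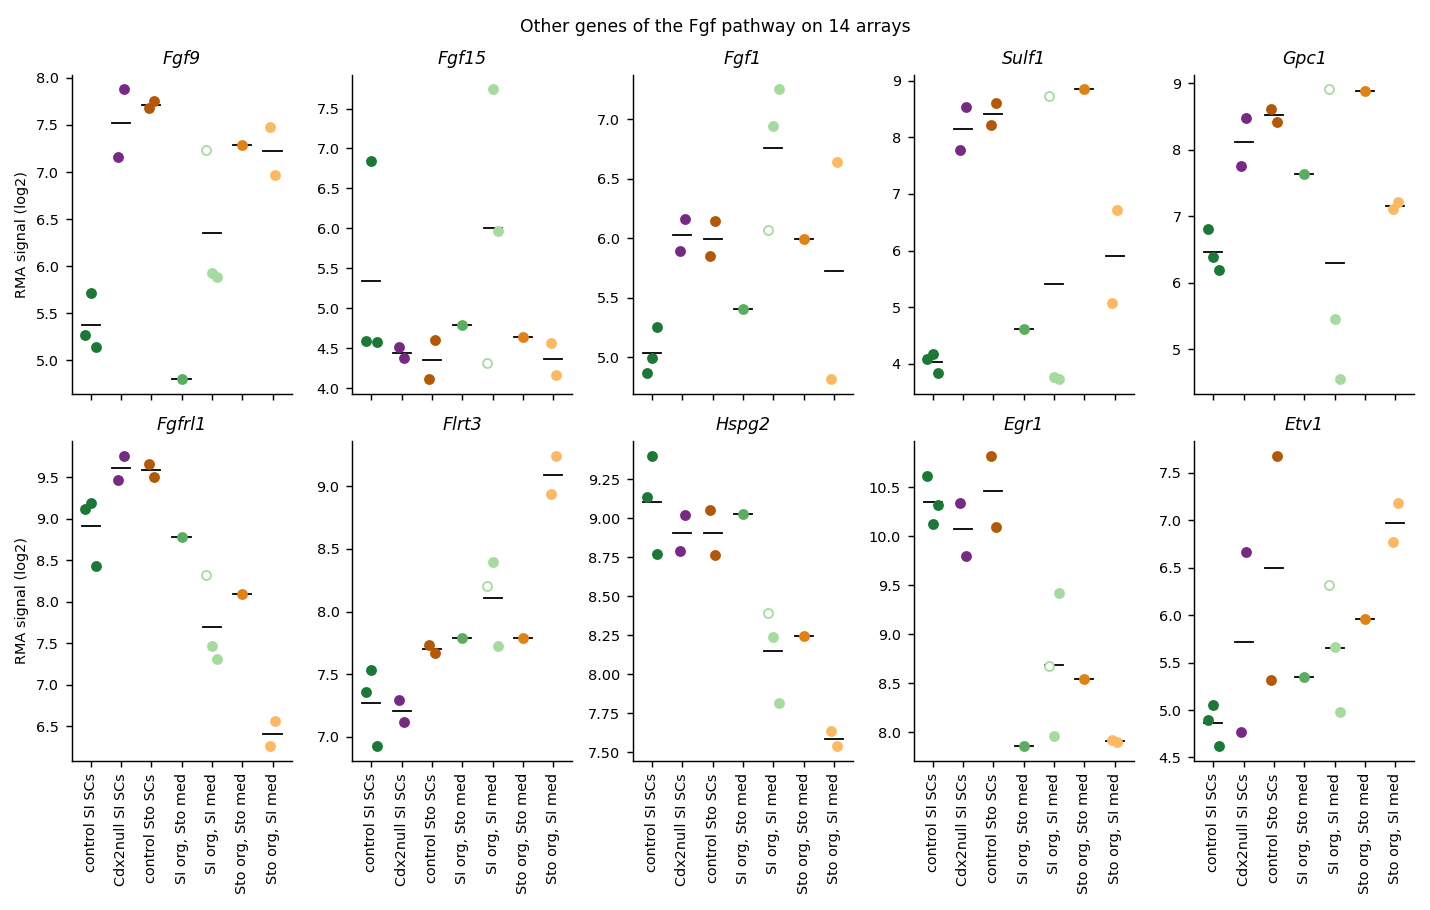
Log2 signals of 10 other genes of the pathway (vertical axes) are plotted on the 14 arrays by group, with a black bar at the group mean and an open symbol for the library labelled SI organoids in SI medium 1; Fgf15, Fgf1 and Etv1 were added after their values were seen. Sulf1, Fgf9 and Gpc1 are high in Cdx2null and control Sto SCs, and Fgfrl1 is lowest and Flrt3 highest in Sto organoids in SI medium.

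Most ligands gave low signals. Of the 22 Fgf ligands measured, 17 never rose above 6 on any array, and Fgf10, the ligand added to Sto medium, read 3.33 to 3.79. The exceptions were Fgf9 and 4 genes chosen after their values were seen, Fgf1 (up to 7.26), Fgf11 (up to 6.80), Fgf13 (7.27 in the library labelled SI organoids in SI medium 1 and up to 5.12 elsewhere) and Fgf15, the intestinal hormone that acts on liver, which read 7.74 and 5.97 in SI organoids in SI medium 2 and 3 and 6.85 in control SI SCs 2. Fgfr1, the remaining receptor of the family with a kinase domain, read 4.00 to 4.64 on all arrays.

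Across the 14 arrays, the 10 genes fell into looser sets than the group means alone would show. As a description, with no test and with the arrays of a group counted separately, Fgfr4 and Etv4 had a Pearson r of 0.912, Etv5 and Spry1 of 0.895 and Fgfr4 and Spry1 of 0.875. Without the 2 Sto organoid arrays in SI medium, over 12 arrays, these were 0.669, 0.711 and 0.641. Etv4 and Etv5 then had an r of -0.07, Fgfr2 and Etv4 of -0.48 and Fgfr3 and Fgfr4 of -0.27. Among the 4 feedback inhibitors, r over those 12 arrays was 0.838 for Spry1 and Spry4, 0.816 for Dusp6 and Spry4, 0.806 for Dusp6 and Spry1, 0.78 for Spry2 and Spry4, 0.686 for Dusp6 and Spry2 and 0.41 for Spry1 and Spry2. Over all 14 arrays these were 0.473, 0.795, 0.517, 0.714, 0.652 and 0.607 in the same order.

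The genes most like each of the 10 over the 14 arrays, among all others measured, had Pearson r of 0.892 to 0.971. Fgfr4 was closest to Nelfa (0.971) and to the stem cell transcription factor Ascl2 (0.968). Etv4 was closest to the replication gene Orc1 (0.971) and to Atp23 (0.960). For Etv5 they were Ror2 (0.962), a Wnt5a receptor, and Tnfaip8l1 (0.957), and for Spry1 they were Lrig1 (0.953), a membrane protein that marks gut stem and progenitor cells, and Grhpr (0.951). Fgfr2 was closest to Hdac4 (0.904) and Tacc1 (0.903), Fgfr3 to Atpaf1 (0.910) and Eppk1 (0.908), and Fgfbp1 to Ppie (0.917) and Sall2 (0.900). For Dusp6 they were Lpin1 (0.914) and Shroom4 (0.892), for Spry2 Tnks2 (0.935) and Rnf40 (0.932) and for Spry4 Mpv17l (0.925) and Vps39 (0.917).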

How the data were processed

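RNA of 14 samples was measured on 1 array each. Background correction, normalisation between arrays and summary to 1 value per probe set had been done by the authors with Affymetrix Power Tools (RMA-sketch), and log2 values of 35556 probe sets were deposited. These were used as deposited. Background signal keeps silent genes above 0, so that folds of weak genes are compressed. Probe sets with 1 gene symbol in the platform annotation were kept, the one with the highest mean where a gene had several (1386 genes), which left 18820 genes.

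Samples were grouped by their labels. Linear models with moderated tests (limma 3.58.1, R 4.3.3) were used for all comparisons, 2-sided, with Benjamini-Hochberg adjustment over the 18820 genes. Comparisons among SCs used the 7 SC arrays, those among organoids the 7 organoid arrays (medium with origin as an additive term), and those between SCs and organoids all 14. SE is that of the log2 difference. The scripts were tested on simulated data. The named genes were the 10 genes, the genes called in the pathway lists (up to 4 in each direction of a comparison, by adjusted p), Cdx2 and Lgr5 where a label was checked, and the 2 genes most alike to each of the 10 by Pearson r. The members and the lists were chosen with earlier results of these data known. Alternatives were quantile normalisation, centring, a filter on dim genes, the mean of probe sets, the methods' t-test, an intensity trend, each array left out, the replicate number as a block and a term for sex. The second Etv5 probe set, the media within each origin, their interaction and the fit without the 2 arrays of another export were added after seeing the data. Promoters came from a RefSeq table on GRCm38.p6.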

Additional observations from a re-analysis of the deposited data

How the results depend on the processing

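No difference reported here for the 10 genes or the called pathway genes turned its direction under any alternative run, among those over 1.5 SE from 0. A further 45 differences were under 1.5 SE from 0, of which 24 changed sign under some alternative and 0 were called under any. For single genes, 689 values kept their side of the threshold, 28 became called and 56 lost a call.

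Counts of called genes among the 10 moved as follows. In control Sto SCs against control SI SCs, where 0 were called, quantile normalisation gave 2, centring 1, the filter on dim genes 2 and the methods' t-test at an unadjusted p 2. Between Sto and SI organoids in SI medium, where 1 was called, the first 3 of these gave 2 each, the intensity trend 0, the methods' t-test 3 unadjusted and 0 after Benjamini-Hochberg adjustment, and leaving out 1 array 0 to 5. In the SCs of the intestine against SI organoids in SI medium the unadjusted t-test gave 1 and leaving out 1 array 0 to 2. Between control Sto SCs and Sto organoids in SI medium the t-test with Benjamini-Hochberg adjustment gave 0 in place of 5, the unadjusted t-test 4 (Fgfr2 and Etv4 lost, Fgfr3 gained), the filter on dim genes 6 (Fgfbp1 gained) and leaving out 1 array 4 to 5. For the difference between the origin effects, quantile normalisation and centring gave 1 each and leaving out 1 array 0 to 4. Without the 2 arrays of another export together, 0 were called in both comparisons that hold them. Beyond what the construction of each alternative shows, the cause was not tested.

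Same-numbered samples did not all deviate together (r of deviations from the group means -0.06 to 0.40), so they were not treated as paired. With a replicate block, 5 genes were called between control Sto SCs and Sto organoids in SI medium and 0 in the other comparisons, Etv4 between Sto and SI organoids included (-1.78, limma adjusted p = 0.284). Of the pathway genes, Gpc1 lost both calls under the block (1.52 and 1.92, limma adjusted p = 0.114 and 0.0507). The number of arrays, 1 to 3 in a group, limits the precision of every mean.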

Other observations

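Etv1, another member of the Etv family, was read after its values had been seen, and its order of groups was unlike that of Etv4 and Etv5. It read 6.77 and 7.18 in Sto organoids in SI medium, where the other two were lowest. In control Sto SCs it read 5.32 and 7.68, and in control SI SCs 4.90, 5.06 and 4.62, so that the groups did not overlap.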
